A study of Mus musculus with 15 samples.

Results

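TUBO is a mouse mammary tumour cell line established from primary tumours of Balb-NeuT mice, which carry a Neu (Her2) transgene, and MM3MG is a cell line labelled as normal mammary epithelium of BALB/c mice. Small RNA was sequenced from 3 TUBO cell libraries and 3 MM3MG libraries, which make 6 of the 15 libraries of a study that set out to find miRNAs that regulate the progesterone receptor in Her2-expressing cells. Both lines were grown untreated in DMEM with 10% FCS, the medium shared by all groups, and neither group carries a retroviral construct. A further group of 3 libraries, MM3MG transduced with retroviral particles carrying Neu (MM3MG-Her2), was fitted in the same model, where it entered the estimate of the spread and the scaling factors. All libraries with these labels were used, and reads were assigned to miRNAs by sequence. TUBO and MM3MG are each 1 line, so a difference between tumour and normal tissue cannot be told apart from a difference between these lines. The labels do not say whether replicates were separate cultures, so p-values measure the spread between these libraries, which may be technical.

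A miRNA is cut from a hairpin transcript that yields a strand from its 5' arm (5p) and one from its 3' arm (3p), and the strand that is kept guides the Argonaute protein to messenger RNAs. Target choice rests mainly on the seed, bases 2 to 8 of the mature miRNA, so miRNAs that share a seed form families with overlapping targets. Many hairpins lie close together in the genome and are cut from 1 transcript, so their miRNAs tend to be made together. In mammary epithelium the miR-200 family is known for repressing Zeb1 and Zeb2, repressors of E-cadherin.

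The mature sequences below belong to the miRNAs and families on which the comparison turns. They are RefSeq's for GRCm38.p6, which held the mature sequence of 246 of the 280 miRNAs tested, and the seed is in capitals. The first set shows the 2 seeds of the miR-200 family.
miR-200b-3p: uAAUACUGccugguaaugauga
miR-200c-3p: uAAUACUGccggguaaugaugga
miR-429-3p: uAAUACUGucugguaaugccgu
miR-200a-3p: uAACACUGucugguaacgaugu
miR-141-3p: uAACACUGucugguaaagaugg
The second set shows miRNAs that were abundant in TUBO, with miRNAs that share their seed: miR-30c-5p and miR-30e-5p, the miR-181 members, and miR-146a-5p, which was low in both lines.
miR-30a-5p: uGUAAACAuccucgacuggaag
miR-30c-5p: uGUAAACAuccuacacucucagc
miR-30e-5p: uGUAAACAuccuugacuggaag
miR-9-5p: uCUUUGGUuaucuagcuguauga
miR-204-5p: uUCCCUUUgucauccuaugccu
miR-146b-5p: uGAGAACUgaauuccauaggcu
miR-146a-5p: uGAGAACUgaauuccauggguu
miR-181a-5p: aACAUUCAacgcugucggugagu
miR-181b-5p: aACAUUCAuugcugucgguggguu
miR-181c-5p: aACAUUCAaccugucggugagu
miR-181d-5p: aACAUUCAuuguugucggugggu
The third set shows miRNAs that were abundant in MM3MG and far lower in TUBO.
miR-199a-3p/199b-3p: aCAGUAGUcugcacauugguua
miR-199a-5p: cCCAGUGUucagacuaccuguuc
miR-214-3p: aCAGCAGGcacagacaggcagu
miR-10a-5p: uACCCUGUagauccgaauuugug
miR-10b-5p: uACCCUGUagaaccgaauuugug
miR-127-3p: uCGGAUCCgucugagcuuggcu
miR-379-5p: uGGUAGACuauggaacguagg

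The TUBO libraries held 653871, 525422 and 710902 reads and the MM3MG libraries 417572, 643361 and 453668. miRNAs took 76 ± 0.492% of the TUBO reads and 76.3 ± 3.7% of the MM3MG reads, and inserts of 20 bases or fewer took 10.1 ± 0.279% and 10.2 ± 1.15%. Neither difference between the lines passed the test (exact two-sided permutation test of 3 against 3 libraries, p = 1 for each, the smallest possible being 0.1). Levels are given as CPM, reads per 1000000 miRNA reads of the library. The ± after a mean or percentage is the SD of 3 libraries. After a log2 difference, ± is a standard error derived from the test statistic of the fit over 9 libraries. It is not the spread between the 3 libraries of a line. Some libraries stood apart for particular miRNAs. TUBO replicate 2 was the highest TUBO library for 9 of the 10 miRNAs that had at least 1000 CPM in MM3MG and were over 32-fold lower in TUBO. The remaining miRNA, miR-214-3p, had no TUBO read, and for miR-196a-5p, among the 9, the TUBO libraries were nearly level. Those 10 miRNAs took 0.0122%, 0.0448% and 0.0145% of the miRNA reads of TUBO replicates 1 to 3, against a mean of 13.2% in MM3MG. MM3MG replicate 1 was low for let-7d-5p (745 CPM against 2189.7 and 2031 CPM) and high for miR-145a-5p, and MM3MG replicate 3 was low for miR-19a-3p and miR-19b-3p.

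Reads were found for 797 miRNAs, of which 280 passed the filter on low counts. Between TUBO and MM3MG, 233 of them (83.2%) differed at an adjusted p under 0.05 in edgeR's quasi-likelihood test, 125 (44.6%) higher and 108 (38.6%) lower in TUBO, and the libraries of the lines did not overlap in CPM for 229 (81.8%). Because so many miRNAs passed, a list is read here against those shares and against the median log2 difference of 0.20 over all miRNAs tested. Large differences were frequent in both directions. Counting a miRNA with 0 reads in a line at its lower bound (3 reads over the group), 16 called miRNAs were over 32-fold higher and 41 were over 32-fold lower in TUBO. No read in the 3 TUBO libraries together was found for 34 of the tested miRNAs, and 8 had none in MM3MG. The 34 could only be called lower and the 8 only higher. They passed the filter on low counts through other libraries, and that filter also covered the MM3MG-Her2 libraries. The balance of 16 against 41 was therefore partly set by the filter, and no conclusion is drawn from it. In bulk RNA, fewer cells that make a miRNA and less of it in each cell cannot be told apart.

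The position of zero depended on the scaling. The median log2 difference was 0.20 with TMM over 9 libraries, -0.20 with RLE scaling and -0.42 with upper-quartile scaling, and the split of calls moved from 125 higher and 108 lower to 101 and 125, and to 89 and 136. TMM also moved with the libraries in the fit. With the 6 TUBO and MM3MG libraries alone its median was -0.33, with 93 higher and 128 lower. Among the 9 libraries it was -0.37, -0.50 and -0.43 without TUBO replicate 1, 2 or 3, and -0.42, 0.27 and 0.16 without MM3MG replicate 1, 2 or 3. Differences of the size of these shifts have no settled direction here. A difference is called settled below where it kept its sign and passed the test in the main fit and in each of 15 alternatives that tested it. That held for 187 of the 280 miRNAs (66.8%), 85 higher and 102 lower, and a named difference that was not settled is marked.

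**Figure D1:**
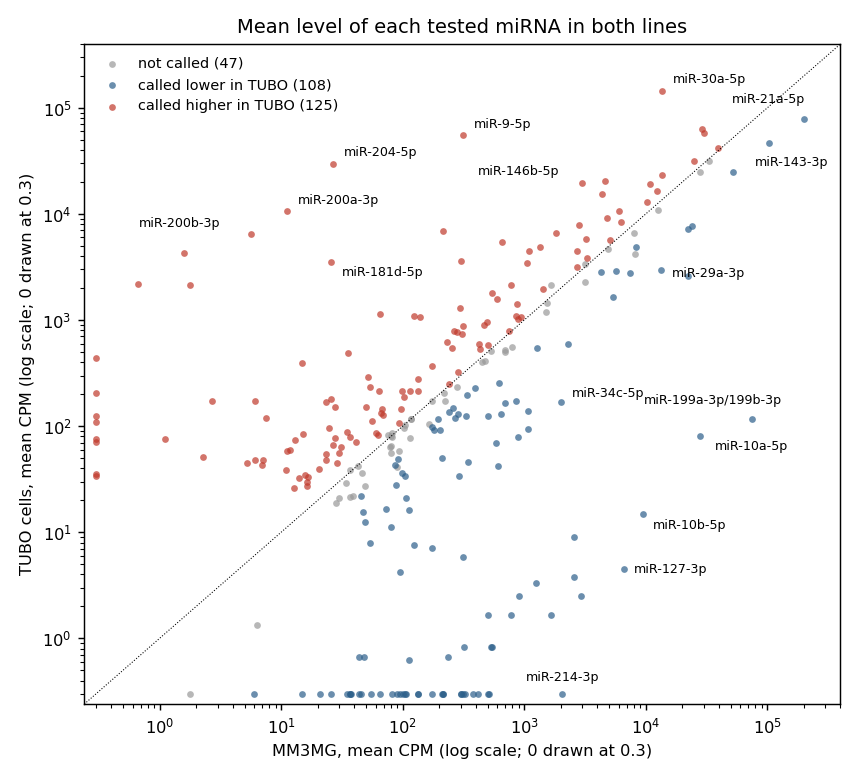
Mean CPM of each of the 280 tested miRNAs in MM3MG (x axis, log scale) and in TUBO cells (y axis, log scale), 3 libraries each, coloured by the test. The dotted line marks equal CPM, miRNAs at 0 reads are drawn at 0.3, and the miR-200 family, miR-204-5p and miR-9-5p lie far above the line while miR-199a-3p/199b-3p, miR-10a-5p, miR-127-3p and miR-214-3p lie far below it.

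The most abundant miRNAs differed between the lines. In TUBO the first was miR-30a-5p, which had 143907, 150683 and 140920 CPM in the 3 TUBO libraries and 13849, 13209.8 and 13741 CPM in the 3 MM3MG libraries. It was followed by miR-21a-5p, miR-92a-3p, miR-182-5p, miR-9-5p, miR-143-3p, miR-181a-5p, let-7c-5p, let-7f-5p and miR-204-5p. In MM3MG the first was miR-21a-5p, a miRNA made from within the Vmp1 gene and raised in many tumours, at 207959, 186938 and 210905 CPM against 79240.3, 77581 and 76672 CPM in TUBO. It was followed by miR-143-3p, miR-199a-3p/199b-3p, let-7i-5p, miR-181a-5p, let-7f-5p, miR-182-5p, miR-92a-3p, miR-10a-5p and miR-148a-3p. The lists of 10 shared 6 names.

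The 10 most abundant miRNAs of each library took 58.2 ± 0.0911% of the miRNA reads in TUBO and 62.2 ± 0.76% in MM3MG. Thinned to 300665 miRNA reads, a TUBO library showed 389.9 ± 3.48 miRNAs with a read and an MM3MG library 471 ± 7.71. The libraries of the lines did not overlap in either measure (exact two-sided permutation test, p = 0.1 for each, the smallest possible).

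**Figure D2:**
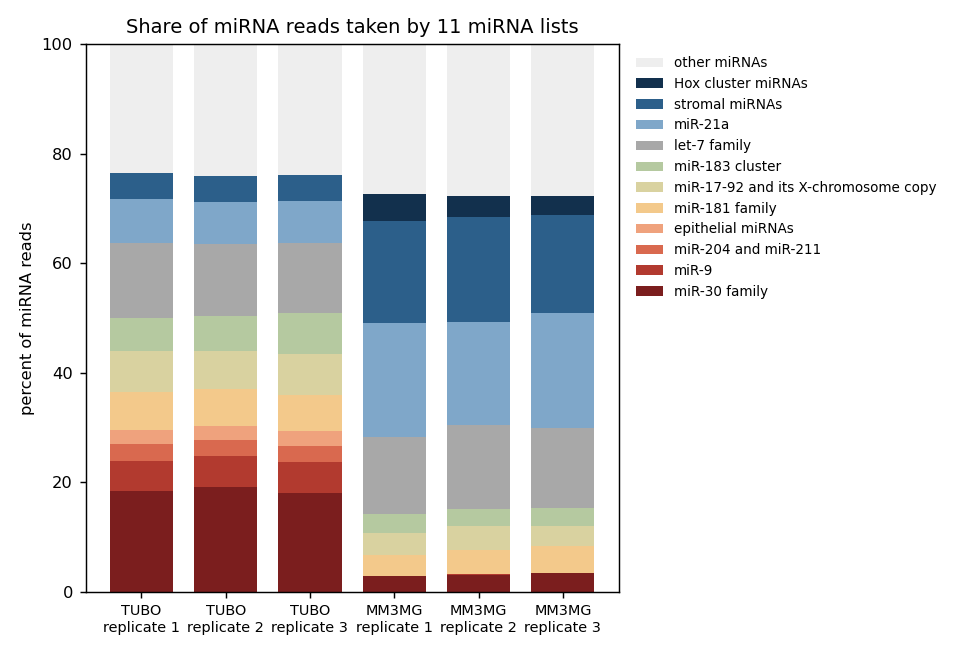
Percent of the miRNA reads (y axis) that 11 miRNA lists took in each of the 6 libraries. The 3 TUBO bars and the 3 MM3MG bars are each alike, with the miR-30 family at 18.5 ± 0.565% in TUBO and 3.15 ± 0.258% in MM3MG, and the stromal list at 4.73 ± 0.00527% and 18.5 ± 0.711%.

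The 7 miRNAs of the epithelial list (the miR-200 family, miR-203-3p and miR-205-5p) were all higher in TUBO, 7 of 7 tested and all settled. Of all 280 miRNAs tested, 44.6% were higher. The median log2 difference of the list was 10.26. Together its miRNAs took 2.61 ± 0.0719% of the TUBO miRNA reads and 0.00369 ± 0.000983% of the MM3MG reads, which is 41 reads over the 3 MM3MG libraries. With so few MM3MG reads, members of the list could pass the filter on low counts only through other libraries. The count called higher was therefore largely set by the filter, and the read totals carry the result. MM3MG is labelled as mammary epithelium, and its level of these defining miRNAs was near 0 in each of its libraries. The most abundant was miR-200a-3p, with 10024, 10889 and 10809.6 CPM in TUBO and 13.3, 5.97 and 14 CPM in MM3MG (log2 difference 10.22 ± 0.22, adjusted p = 4.14e-22). miR-200b-3p had 6817, 6095 and 6474 CPM in TUBO and 6.65, 1.99 and 8.4 CPM in MM3MG (log2 difference 10.46 ± 0.24, adjusted p = 2.37e-21). For both, every TUBO library lay far above every MM3MG library.

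The other members rested on 1 to 3 MM3MG reads, so their size is given as a ratio with its exact counting interval. miR-200c-3p had 4594, 3903 and 4492 CPM in TUBO against 0, 1.99 and 2.8 CPM in MM3MG, a ratio of 2531 (95% interval 700.4 to 20904), adjusted p = 5.85e-20. miR-141-3p, cut from the same transcript, had 2257, 2082 and 2173 CPM in TUBO and 1 read in the 3 MM3MG libraries, a ratio of 2525 (95% interval 453 to 99780.1), adjusted p = 2.66e-19. miR-429-3p had 2377, 1867 and 2151 CPM in TUBO, a ratio of 1247 (95% interval 345 to 10304), adjusted p = 4.85e-19. These 3 were not detectable above a few reads in MM3MG at this depth.

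Both seeds of the family rose together. Reads with the seed AAUACUG (miR-200b-3p, miR-200c-3p and miR-429-3p) summed to 12914 ± 975 CPM (SD, n = 3) in TUBO, and reads with AACACUG (miR-200a-3p and miR-141-3p) to 12736 ± 402 CPM, so the seeds were present at nearly the same level. In MM3MG they summed to 9.05 ± 2.74 and 11.8 ± 3.3 CPM. The 5 members come from hairpins at 2 places in GRCm38. Those of miR-429, miR-200a and miR-200b lie within chr4:156053905-156055750 on the minus strand, in an intron of Ttll10 on the same strand, where the miR-429 hairpin also overlaps an exon of the transcript Gm13648. Those of miR-141 and miR-200c lie within chr6:124717914-124718390 on the minus strand, in an intron of the antisense transcript Gm15884. Of the passenger strands, 3 were tested and called higher in TUBO, and none of the 3 had an MM3MG read, so they could not have been called lower. miR-200a-5p had 466, 430.4 and 412 CPM in TUBO, miR-141-5p 110.0, 135 and 129 CPM and miR-200b-5p 78, 87.6 and 61.5 CPM. That makes miR-200a-5p at least 169-fold, miR-141-5p at least 47.9-fold and miR-200b-5p at least 28.8-fold higher.

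miR-203-3p, which acts in differentiation of stratified epithelium, had 394, 383 and 406 CPM in TUBO and 13.3, 11.9 and 19.6 CPM in MM3MG (log2 difference 4.99 ± 0.24, adjusted p = 2.37e-14). miR-205-5p, a miRNA of basal mammary epithelium, was the lowest of the list, at 62, 90.1 and 74.6 CPM in TUBO and 1 read in MM3MG, a ratio of 86.4 (95% interval 15.2 to 3446), adjusted p = 5.29e-09. A further miRNA among the largest rises was miR-135b-5p (intron of Lemd1, chr1:132198088-132198184, plus strand). It had 184, 203 and 226 CPM in TUBO and no read in MM3MG, which makes it at least 79.2-fold higher (adjusted p = 3.99e-12).

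The miR-183 cluster is known from sensory cells and often raised in carcinomas. It was higher in TUBO for 3 of 3 tested members (44.6% over all miRNAs tested), 2 of them settled. Its main member miR-182-5p had 52134, 56198 and 65489.6 CPM in TUBO and 31038, 29447 and 30649.5 CPM in MM3MG (log2 difference 1.21 ± 0.11, adjusted p = 2.88e-10). miR-183-5p had 7547, 7719 and 8217 and 3236, 2656 and 2596 CPM (log2 difference 1.75 ± 0.12, adjusted p = 5.17e-12). Both were abundant in both lines, unlike the epithelial list, and their libraries did not overlap. miR-96-5p, the member with the fewest reads, had a log2 difference of 0.77 ± 0.25, adjusted p = 0.00824, which was not settled.

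The miR-9 and miR-204 rises were among the largest in reads. miR-9-5p, a miRNA of the developing nervous system that also targets E-cadherin in breast cells, had 54301, 56103 and 56445 CPM in TUBO and 329, 303 and 302 CPM in MM3MG (log2 difference 7.76 ± 0.13, adjusted p = 1.47e-23). Its 3 hairpins give the same mature sequence, so the reads cannot be placed on 1 of them (chr3:88215598-88215686, chr13:83738814-83738885 and chr7:79505264-79505353, all plus strand and within non-coding transcripts). miR-9-3p moved the same way, with 180.1, 168 and 171 CPM in TUBO and 3 reads in MM3MG, a ratio of 67.1 (95% interval 22.7 to 327). miR-204-5p, made from an intron of the channel gene Trpm3 (chr19:22750605-22750672, plus strand) and known from retinal pigment epithelium, had 30242, 30018 and 29191 CPM in TUBO and 36.6, 21.9 and 22.4 CPM in MM3MG (log2 difference 10.42 ± 0.19, adjusted p = 1.57e-23). Its other strand, miR-204-3p, had 132, 85.1 and 112 CPM in TUBO and none in MM3MG (at least 43.1-fold higher). miR-211-5p, which shares the seed UCCCUUU with miR-204-5p, had 11 reads in TUBO and none in MM3MG and was not tested.

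All 10 tested members of the miR-30 family were higher in TUBO (44.6% over all miRNAs tested). Of the 10, 7 were settled, and the median log2 difference was 1.28. The rise was uneven within the seed GUAAACA. miR-30a-5p rose by a log2 difference of 3.70 ± 0.10, adjusted p = 5.85e-20. miR-30c-5p had 5244, 5652 and 5311 CPM in TUBO and 482, 713 and 787 CPM in MM3MG (log2 difference 3.31 ± 0.16, adjusted p = 2.53e-15). miR-30d-5p, at 19301, 19201 and 18598 and 8465, 11201 and 12934 CPM, rose by 1.09 ± 0.12, adjusted p = 1.83e-08, and miR-30e-5p, at 8965, 9288 and 9059 and 4513, 4614 and 5313 CPM, by 1.20 ± 0.11, adjusted p = 4.04e-10. Within the family's 5p reads, miR-30a-5p therefore made up 80.7 ± 0.29% in TUBO and 44.4 ± 4% in MM3MG, while miR-30d-5p made up 10.6 ± 0.244% and 35.1 ± 4.62%. Summed over the 5 members, the seed took 179677 ± 5539 CPM in TUBO and 30783 ± 2586 CPM in MM3MG (SD, n = 3), and was the most abundant seed of TUBO. miR-30a-5p and miR-9-5p together took 20.1 ± 0.521% of the TUBO miRNA reads against 1.39 ± 0.0352% in MM3MG.

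The miR-181 family shares the seed ACAUUCA and is known for setting signalling thresholds in lymphocytes. Its 4 members were called higher in TUBO (44.6% over all miRNAs tested), 3 of them settled. The size ran from a difference near 0 to over 100-fold. miR-181d-5p had 3661, 3528 and 3469 CPM in TUBO and 16.6, 37.8 and 22.4 CPM in MM3MG (log2 difference 7.28 ± 0.22, adjusted p = 4.39e-19). miR-181c-5p had 6853, 7033 and 6867 and 189.6, 207 and 249 CPM (log2 difference 5.28 ± 0.16, adjusted p = 2.66e-19). These 2 are cut from neighbouring hairpins in an intron of Nanos3 (chr8:84178716-84178961, minus strand). miR-181b-5p had 15228, 16079 and 15058 and 3059.9, 4837 and 5249 CPM (log2 difference 2.10 ± 0.15, adjusted p = 3.61e-10). miR-181a-5p, the most abundant member, had 43521, 40722 and 41624 CPM in TUBO and 33369, 39974 and 43805 CPM in MM3MG, where the libraries overlapped. Its log2 difference of 0.39 ± 0.10, adjusted p = 0.00143 passed the test but was not settled and ranged from -0.27 to 0.45 over the alternatives. As a share of the family's reads, miR-181c-5p went from 0.494 ± 0.0306% in MM3MG to 10.2 ± 0.278% in TUBO and miR-181a-5p from 89.5 ± 1.34% to 61.8 ± 1.22%.

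Several of these miRNAs are on a list, put together here, of 15 candidates to regulate the progesterone receptor (miR-9-5p, the miR-30 and miR-181 5p strands, miR-26a-5p, miR-26b-5p, miR-126a-3p, miR-378a-3p and miR-423-5p). Of the 15 tested, 12 were higher and 2 lower in TUBO, against 44.6% and 38.6% of all miRNAs tested. Of the 15, 10 were settled, and the median log2 difference was 1.09. The list took 32.3 ± 0.629% of the miRNA reads in TUBO and 10.7 ± 1.17% in MM3MG, and its libraries did not overlap (exact two-sided permutation test, p = 0.1, the smallest possible). In TUBO most of that share was miR-30a-5p, miR-9-5p and miR-181a-5p, and in MM3MG the most abundant members were miR-181a-5p and miR-26a-5p. The members were chosen with earlier results of these libraries known, so their direction is not independent evidence. The members that fell were miR-26a-5p and miR-126a-3p, of which the latter had no TUBO read and 13.3, 15.9 and 33.6 CPM in MM3MG. No progesterone receptor messenger RNA was measured in these libraries.

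**Figure D3:**
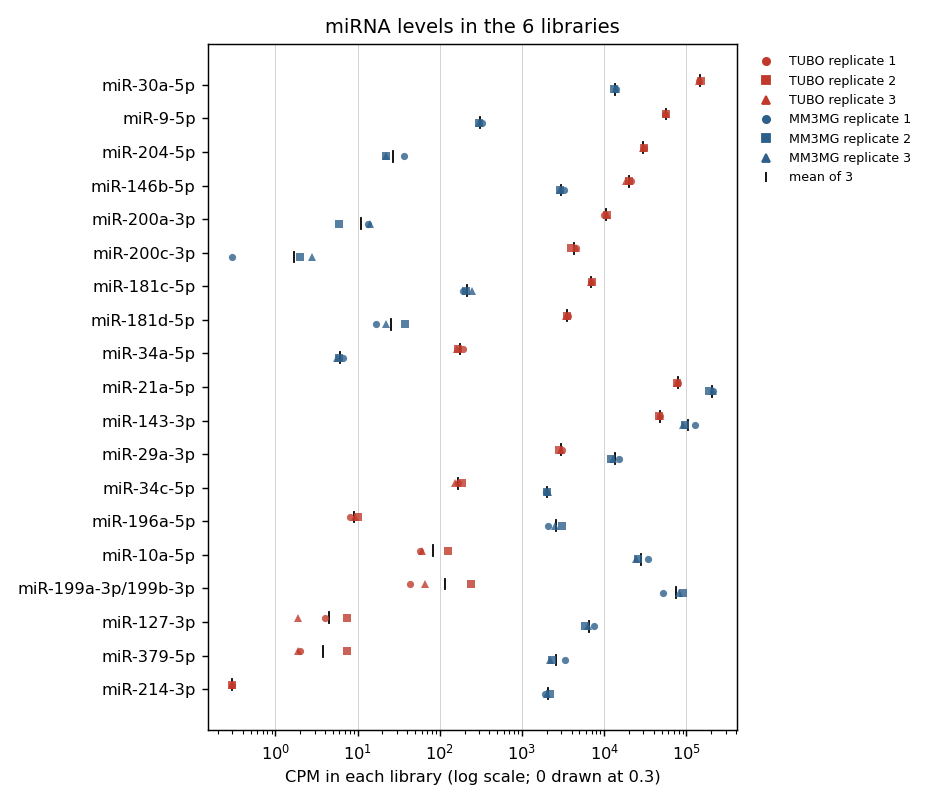
CPM of 19 miRNAs (rows) in each of the 6 libraries (x axis, log scale, 0 drawn at 0.3), with symbols for replicates and a bar for the mean of 3. The lines do not overlap for any of the 19, which were chosen with results known, and did not overlap for 81.8% of all 280 tested. TUBO replicate 2 lies to the right of the other TUBO libraries for miR-10a-5p, miR-199a-3p/199b-3p, miR-127-3p and miR-379-5p.

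The stromal list holds miR-199a, miR-199b, miR-214, miR-143 and miR-145a, miRNAs typical of fibroblasts, smooth muscle and other mesenchymal cells. All 8 tested members were lower in TUBO, 8 of 8 settled, where 38.6% of all miRNAs tested were lower. Their median log2 difference was -8.95, or -7.74 with members at 0 reads set to their bound. miR-214-3p and miR-214-5p had no TUBO read and miR-199a-5p few, so these passed the filter on low counts only through other libraries. Their calls were therefore largely set by the filter. The list took 4.73 ± 0.00527% of the TUBO miRNA reads and 18.5 ± 0.711% of the MM3MG reads, and in TUBO nearly all of it was miR-143-3p. miR-199a-3p and miR-199b-3p have the same sequence and were counted as 1. They had 44, 243 and 65.2 CPM in the TUBO libraries and 51918, 91455 and 81078 CPM in MM3MG (log2 difference -9.10 ± 0.70, adjusted p = 1.42e-05). Without TUBO replicate 2 the log2 difference was -10.72. That library's part in the low TUBO counts of this list was not tested further.

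miR-214-3p had no read in any TUBO library and 1926, 2178 and 2025 CPM in MM3MG, which makes it at least 989-fold lower (adjusted p = 2.67e-18). miR-199a-5p had 3 TUBO reads, all in replicate 2, and 3725, 2528 and 2566 CPM in MM3MG, a ratio of MM3MG to TUBO of 1364 (95% interval 466 to 6618) (adjusted p = 4.57e-12). The hairpins of miR-199a-2 (chr1:162217814-162217923) and miR-214 (chr1:162223368-162223477) lie on the plus strand in exons of Dnm3os, a transcript antisense to Dnm3. The pair miR-143 and miR-145a behaved differently. miR-143-3p, the second most abundant miRNA of MM3MG, had 46986, 46922 and 47078 CPM in TUBO and 125349, 95228 and 91481 CPM in MM3MG, a log2 difference of -0.87 ± 0.11, adjusted p = 1.34e-07. miR-145a-5p had 196, 158 and 145 CPM in TUBO and 1217, 458 and 423 CPM in MM3MG, where replicate 1 was far above the other libraries (log2 difference -1.77 ± 0.45, adjusted p = 0.0085, and -1.68 without that library). The lines did not overlap for either, and both stayed above 100 CPM in every TUBO library.

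miRNAs of the Hox gene clusters are expressed with the neighbouring Hox genes along the body axis. In TUBO 5 of 5 tested were lower (38.6% over all miRNAs tested), all settled, with a median log2 difference of -7.83. miR-10a-5p had 58, 125 and 61.5 CPM in TUBO and 34101, 26018 and 24412 CPM in MM3MG (log2 difference -8.19 ± 0.31, adjusted p = 3.21e-09). miR-10b-5p, which lies in an intron of Hoxd3 and Hoxd4 (chr2:74726070-74726137, plus strand) and was studied in breast cancer metastasis, had 6, 32.5 and 5.59 CPM in TUBO and 12203, 8637 and 7383 CPM in MM3MG (log2 difference -9.15 ± 0.49, adjusted p = 3.25e-07). Both carry the seed ACCCUGU. Without TUBO replicate 2, the highest TUBO library for both, the log2 difference was -9.20 for miR-10a-5p and -10.91 for miR-10b-5p. miR-196a-5p had 8, 10 and 9.32 and 2089, 3069.6 and 2552 CPM (log2 difference -7.83 ± 0.24, adjusted p = 4.85e-19), with no raised value in TUBO replicate 2. miR-196b-5p kept the highest TUBO level relative to MM3MG, at 120.0, 55 and 104 against 1211, 1009 and 989 CPM (log2 difference -3.21 ± 0.20, adjusted p = 4.42e-13). The list took 0.0203 ± 0.00223% of the miRNA reads in TUBO and 4.13 ± 0.745% in MM3MG.

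The imprinted Dlk1-Dio3 region of chromosome 12, whose miRNAs are made from the maternal chromosome, had few reads in TUBO. Its first group of hairpins lies antisense to the gene Rtl1. All 6 tested of the 9 miRNAs on that list were lower in TUBO and settled, with 8 reads in the 3 TUBO libraries and 9720 in the 3 MM3MG libraries over the whole list. The most abundant, miR-127-3p (chr12:109592846-109592915, plus strand), had 4, 7.51 and 1.86 CPM in TUBO and 7523, 5835 and 6344 CPM in MM3MG (log2 difference -10.23 ± 0.26, adjusted p = 2.16e-20, and -11.29 without TUBO replicate 2). miR-136-3p, miR-434-3p and miR-434-5p had no TUBO read and means of 514 ± 59.2, 418 ± 91.1 and 379 ± 89.8 CPM in MM3MG (n = 3), so they were at least 246-fold, 203-fold and 186-fold lower.

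The second group, the cluster from miR-379 to miR-410, spans chr12:109709060-109747960 with the transcript Mirg. Of its 44 listed miRNAs 40 had a read, 14 were tested, and 14 of 14 were lower and settled. The whole list had 14 reads in TUBO and 10611 in MM3MG. With so few TUBO reads, members of both chromosome 12 lists could pass the filter on low counts only through other libraries. The counts of members called lower were therefore largely set by the filter, and the read totals carry the result. miR-379-5p had 2, 7.51 and 1.86 CPM in TUBO and 3289, 2309 and 2165 CPM in MM3MG (log2 difference -9.13 ± 0.31, adjusted p = 4.35e-18, and -10.45 without TUBO replicate 2). miR-411-5p had 2 TUBO reads, both in replicate 2, against 1507, 1594 and 1896 CPM in MM3MG, a ratio of MM3MG to TUBO of 1195 (95% interval 330.4 to 9875). miR-382-5p, miR-299a-3p, miR-134-5p, miR-300-3p and miR-409-3p had no TUBO read and were lower by bounds that ran from at least 146-fold (miR-409-3p) to at least 231-fold (miR-382-5p). The medians over the tested members were -7.80 and -7.24 on the log2 scale for the lists in turn, with members at 0 reads set to their bound. The 8 listed miRNAs of the Sfmbt2 cluster on chromosome 2, a large rodent cluster that is also imprinted, had no TUBO read and 188 MM3MG reads. The 2 tested features among them (miR-669c-5p and miR-669a-3p/669o-3p) were called lower, which with no TUBO read was the only direction they could take.

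**Figure D4:**
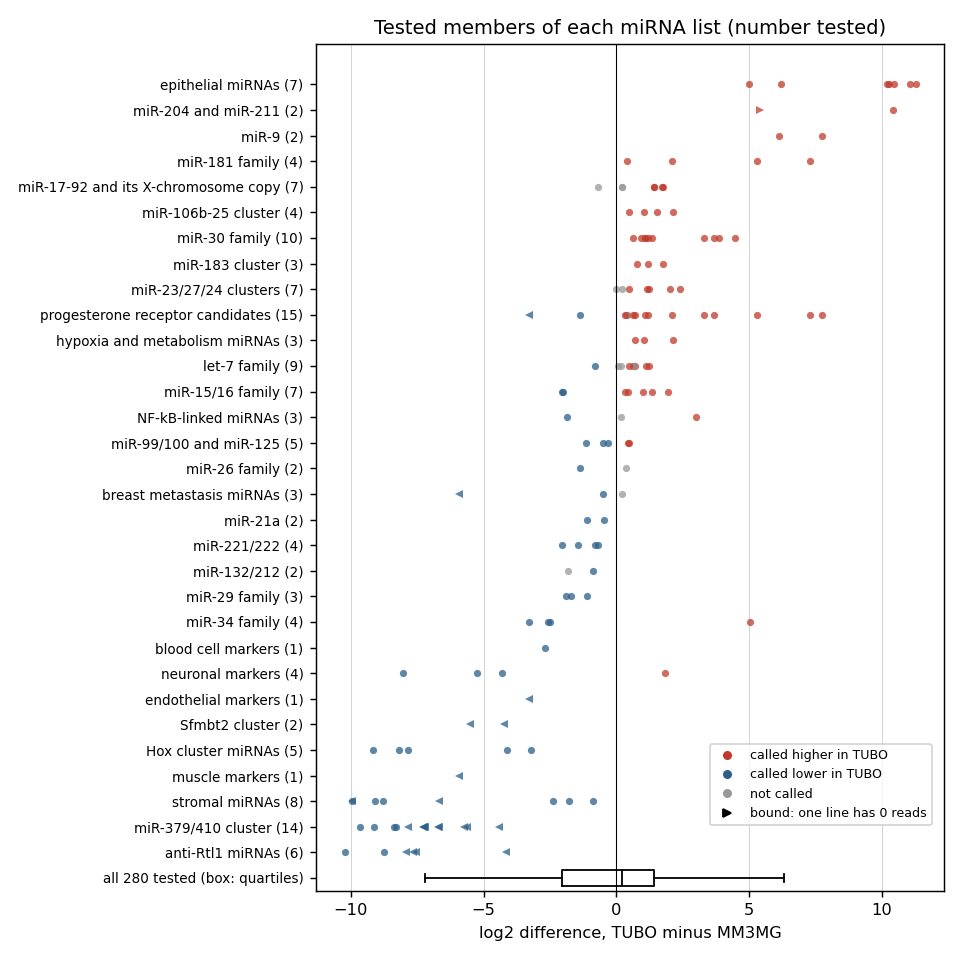
Log2 difference TUBO minus MM3MG (x axis) of each tested member of each miRNA list (rows, number tested in brackets), coloured by the test. Triangles mark members with 0 reads in a line, drawn at their bound, and the box at the bottom gives the quartiles of all 280 tested miRNAs, against which the epithelial list lies to the right and the stromal and chromosome 12 lists to the left.

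The miR-17-92 cluster on chromosome 14 with its X-chromosome copy is a target of Myc that promotes proliferation. Of 7 tested, 4 were higher and 0 lower, against 44.6% and 38.6% of all miRNAs tested. All 4 were settled. No read was assigned to miR-106a-5p, miR-18b-5p, miR-20b-5p or miR-363-3p, the listed miRNAs of the X-chromosome copy alone. miR-92a-3p and miR-19b-3p come from hairpins on both chromosomes, and their reads cannot be divided between them. miR-92a-3p had 65145, 60469 and 65331 CPM in TUBO and 25217, 30315 and 31296 CPM in MM3MG (log2 difference 1.42 ± 0.10, adjusted p = 3.83e-12). miR-20a-5p had 2177, 2054 and 2226 and 652, 932 and 762 CPM (log2 difference 1.73 ± 0.14, adjusted p = 9.66e-11). miR-19b-3p and miR-19a-3p were not called. miR-19b-3p had 4702, 3478 and 4461 CPM in TUBO and 12406, 9434 and 2745 CPM in MM3MG, a log2 difference of -0.70 ± 0.52, adjusted p = 0.245, and the 3 MM3MG libraries spread over several-fold. The related miR-106b-25 cluster in the Mcm7 gene was higher for 4 of 4 tested, 3 of them settled. miR-25-3p had 21920.4, 25264 and 22409.6 and 13178, 13134 and 14629 CPM (log2 difference 1.05 ± 0.10, adjusted p = 1.35e-09), and miR-93-5p 6510.5, 6448 and 6986 and 1636, 1999 and 1874 CPM (log2 difference 2.13 ± 0.12, adjusted p = 1.22e-13). miR-92a-3p and miR-25-3p share the seed AUUGCAC, whose reads summed to 87932 ± 1051 CPM in TUBO and 42706 ± 3913 CPM in MM3MG (SD, n = 3).

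The let-7 family, which represses growth genes such as Ras and Hmga2 and marks differentiated cells, was near even. Of 9 tested, 5 were called higher and 1 lower, against 44.6% and 38.6% of all miRNAs tested. Of the 9, 3 were settled, and the median log2 difference was 0.62. let-7i-5p was the member that fell, from 59781, 46384 and 50614 CPM in MM3MG to 24065, 25697 and 24527 CPM in TUBO (log2 difference -0.79 ± 0.10, adjusted p = 2.12e-07). It made up 35.8 ± 6.02% of the family's reads in MM3MG and 18.7 ± 1.06% in TUBO. let-7c-5p, at 32901, 31522 and 30199 CPM in TUBO and 19982, 28838 and 25614 in MM3MG, had a log2 difference of 0.62 ± 0.12, adjusted p = 5.67e-05 that was not settled, as had let-7b-5p (0.70 ± 0.12, adjusted p = 9.30e-06). The seed GAGGUAG summed to 132576 ± 4301 CPM in TUBO and 146571 ± 5895 CPM in MM3MG (SD, n = 3). That is lower in CPM, while the fit with TMM gave a log2 difference of 0.27, so its direction depends on the scaling.

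Members of some families moved in opposite directions. In the miR-34 family, which p53 induces, miR-34a-5p had 192, 165 and 164 CPM in TUBO and 6.65, 5.97 and 5.6 CPM in MM3MG (log2 difference 5.04 ± 0.34, adjusted p = 2.37e-12). miR-34c-5p went the other way, with 166, 188 and 153 CPM in TUBO and 1956, 2024 and 2095 CPM in MM3MG (log2 difference -3.31 ± 0.15, adjusted p = 9.30e-16), and so did miR-34b-5p (-2.59 ± 0.20, adjusted p = 3.34e-11) and miR-34b-3p (-2.52 ± 0.42, adjusted p = 7.51e-06). miR-34a comes from chr4:150068454-150068555 (plus strand), and miR-34b and miR-34c from neighbouring hairpins within chr9:51103034-51103645 (minus strand). Of the reads with this family's seed, GGCAGUG, miR-34a-5p made up 44.6 ± 2.94% in TUBO and 0.255 ± 0.0272% in MM3MG. The seed sum was lower in TUBO (log2 difference -2.20 ± 0.13, adjusted p = 2.01e-11).

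The pair miR-146a and miR-146b, induced by NF-kB in inflammation, share the seed GAGAACU and also split. miR-146b-5p (chr19:46342762-46342870, plus strand, intron of Mfsd13a) had 20884, 19929 and 18381 CPM in TUBO and 3233, 2884 and 2929.7 CPM in MM3MG (log2 difference 2.99 ± 0.12, adjusted p = 6.96e-17). miR-146a-5p (chr11:43374397-43374461, minus strand) had 16, 22.5 and 11.2 CPM in TUBO and 83.1, 63.7 and 72.8 CPM in MM3MG (log2 difference -1.87 ± 0.35, adjusted p = 4.28e-05). Their libraries did not overlap in either case, and miR-146b-5p made up nearly all reads of the seed in both lines (99.9 ± 0.0267% in TUBO and 97.6 ± 0.181% in MM3MG). miR-155-5p, a further miRNA of that list, had 42, 55 and 29.8 CPM in TUBO and 36.6, 57.7 and 33.6 CPM in MM3MG and was not called.

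Paralogous clusters can be set side by side. Of the miR-23/27/24 clusters, 5 of 7 tested were higher and 0 lower (44.6% and 38.6% over all miRNAs tested), and 4 were settled. miR-27b-3p of the chromosome 13 copy had 19758, 20990.3 and 20221 CPM in TUBO and 4896, 4758 and 4285 CPM in MM3MG (log2 difference 2.41 ± 0.11, adjusted p = 2.98e-15). Where reads shared with other arms were dropped, that difference was 1.11. Its neighbour miR-23b-3p had 1779, 1706 and 1916 and 482, 559 and 579.8 CPM (log2 difference 2.01 ± 0.14, adjusted p = 2.79e-12). From the chromosome 8 copy, miR-27a-3p had 1016, 1083 and 994 and 1151, 760.4 and 779 CPM, with a log2 difference of 0.49 ± 0.16, adjusted p = 0.00923 that was not settled, and miR-23a-3p (0.21 ± 0.14, adjusted p = 0.164) was not called. The other strand miR-27a-5p was called higher and settled, at 120.0, 110.1 and 108 and 46.6, 71.7 and 50.4 CPM (log2 difference 1.23 ± 0.25, adjusted p = 9.20e-05). miR-24-3p, made by both copies and not divisible between them, had a log2 difference of 1.15 ± 0.12, adjusted p = 7.31e-09. In the miR-15/16 family, 5 of 7 tested were called higher and 2 lower, and 5 of the 7 were settled. The rises of miR-15a-5p and miR-503-5p were not settled. miR-16-5p had 4716, 4459 and 4207 and 2734, 3159 and 2204 CPM (log2 difference 1.00 ± 0.14, adjusted p = 7.02e-07). The 2 that fell were both strands of the X-chromosome hairpin miR-322, and miR-322-5p had 168, 213 and 142 and 812, 896 and 854 CPM (log2 difference -2.03 ± 0.17, adjusted p = 8.23e-11).

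Several miRNAs that regulate growth were lower in TUBO by a few-fold. miR-21a-5p fell by a log2 difference of -1.09 ± 0.09, adjusted p = 7.39e-11. miR-221-3p, which with miR-222 represses the cell cycle inhibitor p27, had 1745, 1741 and 1471 and 5032, 5472 and 5702 CPM (log2 difference -1.43 ± 0.12, adjusted p = 1.99e-10), and miR-222-3p, at 2949, 2932 and 2796 and 5036, 5317 and 6714 CPM, had -0.69 ± 0.13, adjusted p = 2.54e-05. All 4 tested strands of that pair were lower, 3 of them settled. All 3 members of the miR-29 family, which represses collagen and other matrix genes, were lower and settled. miR-29a-3p had 3035, 2797 and 3018 CPM in TUBO and 15253, 12012 and 12721 CPM in MM3MG (log2 difference -1.89 ± 0.12, adjusted p = 4.07e-13). miR-26a-5p, a repressor of Ezh2, had 7099, 7877 and 6597 and 19420.3, 24005 and 23566 CPM (log2 difference -1.35 ± 0.12, adjusted p = 2.02e-10), whereas miR-26b-5p (0.36 ± 0.17, adjusted p = 0.0568) was not called. Of miR-99/100 and miR-125, 2 of 5 were called higher and 3 lower (44.6% and 38.6% over all miRNAs tested), with 2 settled. miR-125b-5p had 2577, 2775 and 2928 and 8711, 6444 and 7111 CPM (log2 difference -1.14 ± 0.12, adjusted p = 8.55e-09). miR-132-3p was lower, with a log2 difference of -0.86 ± 0.19, adjusted p = 2.68e-04, and miR-212-3p of the same transcript was not called.

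Among the hypoxia and metabolism miRNAs, 3 of 3 tested were higher (44.6% over all miRNAs tested) and 1 was settled, miR-210-3p. This target of the hypoxia factor Hif1a had 4529.7, 5154 and 4899 CPM in TUBO and 1424, 1286 and 1372 CPM in MM3MG (log2 difference 2.12 ± 0.12, adjusted p = 1.02e-13). Among miRNAs studied in breast cancer metastasis, miR-31-5p was not called, at 4738, 4712 and 4619 and 4337, 5028 and 5338 CPM (log2 difference 0.22 ± 0.11, adjusted p = 0.0745). miR-206-3p, a muscle miRNA that targets the oestrogen receptor, had no TUBO read and 196, 113 and 92.4 CPM in MM3MG (at least 61.5-fold lower). The miR-335 strands had 1 TUBO read each and none in MM3MG.

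Of the 47 tested miRNAs that were not called, the 6 most abundant were let-7f-5p, miR-148a-3p, let-7a-5p, miR-101b-3p, miR-19b-3p and miR-31-5p. let-7f-5p had 33171, 30764 and 29814 CPM in TUBO and 32997, 36569.8 and 29680.4 CPM in MM3MG (log2 difference 0.19 ± 0.11, adjusted p = 0.121). miR-148a-3p had 23129, 25699 and 26363 and 25257, 28229 and 30139.7 CPM (log2 difference 0.13 ± 0.10, adjusted p = 0.236). let-7a-5p had 0.07 ± 0.13, adjusted p = 0.624 and miR-101b-3p 0.00 ± 0.13, adjusted p = 0.992. In all 6 the libraries of the lines overlapped. A p above the threshold does not show equal levels, and over the alternatives the log2 difference of let-7f-5p ran from -0.42 to 0.30.

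Neighbouring hairpins mostly moved together. Hairpins no more than 10000 bases apart on 1 strand formed 25 clusters with at least 2 hairpins tested. In 15 the called miRNAs were all higher, in 8 all lower, and in 2 they went both ways. Hairpins of a cluster share a transcript in most cases, so these are not independent counts. Some clusters could not go both ways, as they had only 1 called miRNA (such as miR-132 with miR-212) or no read in a line (such as the Sfmbt2 cluster). The first cluster with both directions is on the X chromosome (chrX:53047997-53054349, minus strand), where miR-322-5p, miR-322-3p, miR-351-5p and miR-450a-5p were lower and miR-450b-5p and miR-503-5p higher, the last not settled. miR-450b-5p, named here after its values were seen, had 196, 158 and 183 CPM in TUBO and 9.98, 33.8 and 33.6 CPM in MM3MG (log2 difference 2.97 ± 0.27, adjusted p = 4.17e-10). The second holds miR-99b, let-7e and miR-125a on chromosome 17. There only miR-125a-5p was called lower (-0.30 ± 0.13, adjusted p = 0.0378, not settled), so the split of this cluster rests on an unsettled call. miR-99b-5p, let-7e-5p, miR-99b-3p and miR-125a-3p were called higher. Of those called higher, the miR-99b-3p difference of 1.68 ± 0.16, adjusted p = 7.30e-10 was settled.

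Summed by seed, 180 of 223 seeds tested (80.7%) differed, 93 higher and 87 lower. Of 33 seeds with at least 2 tested miRNAs, 6 held called members in both directions, among them GAGGUAG (let-7), GGCAGUG (miR-34) and GAGAACU (miR-146). The largest rises among seeds with at least 1000 CPM in a line were the seed of miR-200b-3p, miR-200c-3p and miR-429-3p, that of miR-204-5p, that of miR-200a-3p and miR-141-3p, and that of miR-9-5p. The largest falls were the seeds of miR-214-3p, miR-127-3p, miR-199a-5p and miR-411-5p. By sum, the order of seeds in TUBO was that of the miR-30 family, let-7, miR-92a-3p with miR-25-3p, miR-21a-5p, miR-181 and miR-182-5p. In MM3MG it was miR-21a-5p, let-7, miR-143-3p, miR-199a-3p/199b-3p, miR-181 and miR-92a-3p with miR-25-3p.

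The balance of 5p and 3p strands was tested for 65 hairpins with both arms past the filter on low counts, and 16 (24.6%) differed between the lines. Of the 65, miR-193a, miR-214, miR-299a, miR-382 and miR-434 had no TUBO read on either arm, and miR-135b had no MM3MG read. These had no balance to compare and were not called. A ratio within a hairpin does not depend on the scaling of the libraries. In miR-450b the 5p arm took 69 ± 3.22% of the hairpin's reads in TUBO and 23.2 ± 5.82% in MM3MG (adjusted p = 2.99e-10), so the preferred arm differed between the lines. In miR-423 the 5p arm took 33.1 ± 1.94% and 56.2 ± 4.84% (adjusted p = 2.68e-08). For miR-328 the 5p share was 11.6 ± 1.11% in TUBO and 2.72 ± 0.724% in MM3MG, with the 5p strand called higher and the 3p strand lower. Smaller shifts were found in miR-152 (11.5 ± 1.41% and 4.74 ± 0.187%), miR-99b (90.2 ± 0.585% and 95.6 ± 0.867%) and miR-148a (1.09 ± 0.0281% and 0.481 ± 0.0597%). Where both strands were called, in 48 hairpins, they moved the same way in 46. Hairpins with no read in a line could only move the same way, so this count was partly fixed in advance.

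**Figure D5:**
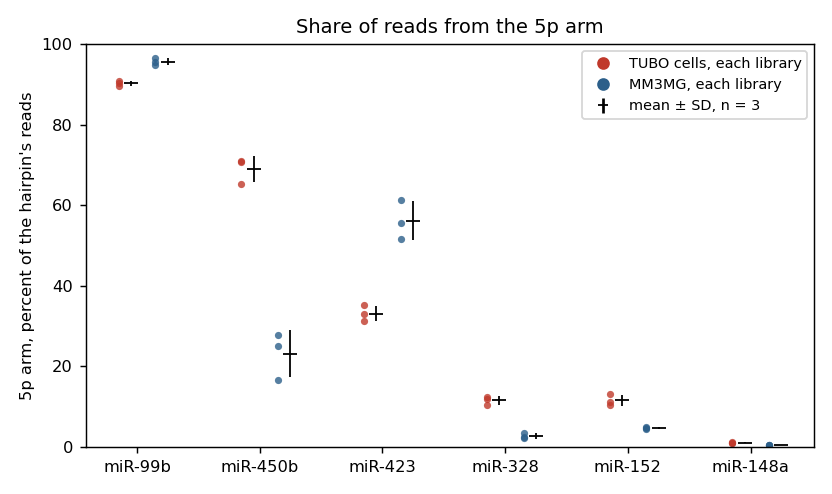
Percent of a hairpin's reads that came from its 5p arm (y axis) in each TUBO and MM3MG library, with the mean and SD (n = 3), for the 6 hairpins with the smallest adjusted p. miR-450b crosses from a mostly 3p hairpin in MM3MG to a mostly 5p hairpin in TUBO, and miR-423 moves in the opposite direction.

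The 5' ends of the commonest inserts were mostly alike in both lines. Among 114 miRNAs with at least 100 CPM in each line, the commonest insert was the same sequence in 99 and began at the same base in 111, so that the seed of the commonest insert was rarely different.

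Most markers of other cell types were low. The blood cell markers miR-451a, miR-144-3p, miR-223-3p and miR-150-5p were at 0 reads in all 6 libraries, and miR-142a-3p and miR-142a-5p had too few reads to be tested. miR-486-5p, which shares its reads with miR-3107-5p and is not limited to red cells, was the 1 of 7 on that list tested, at 148, 120.1 and 147 CPM in TUBO and 1147, 973 and 1126 CPM in MM3MG (log2 difference -2.67 ± 0.15, adjusted p = 1.22e-13). The endothelial markers miR-126a-3p and miR-126a-5p had 0 reads in TUBO and 42 in MM3MG. The 4 muscle markers together had 2 reads in TUBO and 153 in MM3MG, nearly all miR-206-3p. The neuronal list had 235 reads in TUBO and 689 in MM3MG, with miR-124-3p at 0 in both. miR-128-3p was higher in TUBO (log2 difference 1.85 ± 0.24, adjusted p = 2.32e-07), and miR-138-5p was lower (-4.29 ± 0.34, adjusted p = 3.72e-11). So was miR-129-5p (-5.26 ± 0.66, adjusted p = 1.35e-07). miR-218-5p had 1 TUBO read and 219.5, 334 and 406 CPM in MM3MG (ratio of MM3MG to TUBO 469 (95% interval 83.7 to 18578)). Embryonic stem cell markers had no read, and the liver marker miR-122-5p had 8 and 1 reads. The part of other cell types in the levels of the stromal and chromosome 12 miRNAs in MM3MG was not tested.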

How the data were processed

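The authors deposited, for each library, distinct insert sequences with their read count and no miRNA name or normalised value. TRIzol extraction, ligation of adapters to the 3' and then the 5' end, and a gel cut of PCR products of miRNA size are given per the labels' protocols. No source used here names the trimming tool, and no molecular identifiers are named, so intervals and floors cover counting error only.

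Inserts of 18 to 26 bases were assigned to the arms of 1174 named hairpins (GENCODE M21, GRCm38) by an exact match of their first 18 bases and at most 2 differences after them. Arms were merged where 50% or more of their reads were common to both (25 features), and remaining reads shared between arms (0.03 to 0.08% of miRNA reads in the 9 libraries) were dropped, but kept in sums over seeds. RefSeq tables gave mature sequences. Counts of 9 cell libraries (3 each of TUBO, MM3MG and MM3MG-Her2) were fitted together in edgeR 4.0.16 (TMM factors, filterByExpr, robust quasi-likelihood test) with Benjamini-Hochberg adjustment over all features and a threshold of 0.05. Arm balance was tested with diffSpliceDGE on hairpins with both arms past that filter over the 9 libraries. DESeq2 1.42.0 was an alternative. The script for these tests was tested on simulated data. Library totals ran from 417572 to 710902 reads in the 6 libraries compared, and 300665 to 536467 reads were assigned to miRNAs. CPM carry no TMM factor. A floor is 3 reads over the group's miRNA reads, 2.09 CPM in TUBO and 2.59 CPM in MM3MG. With 1 to 3 reads, ratios carry an exact 95% interval.

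Named miRNAs are the 12 largest rises and falls with at least 100 CPM in a line and no overlap, the 10 most abundant of each line, the 6 most abundant not called, and members of lists of families, clusters and cell type markers. Members and lists were chosen with earlier results of these data known. Exosome and supernatant libraries were not used here.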

Additional observations from a re-analysis of the deposited data

How the results depend on the processing

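The calls held in number under most alternatives. Against 233 miRNAs called, RLE scaling gave 226, upper-quartile scaling 225, read totals alone (added after seeing the data) 228, DESeq2 220, the 6 libraries of both lines alone 221, inserts with no difference from the hairpin 209 of 253 tested, inserts of a single arm 227, and leaving out each library 221 to 240. Higher calls ranged from 86 to 124 and lower calls from 105 to 145 over the libraries left out. With no filter on low counts, 322 of 797 miRNAs were called, 172 of them lower, and for seeds 257, 141 of them lower, since more features with few reads were tested. Seeds called were 179 to 196 and hairpins with a changed arm balance 13 to 18 when each library was left out. Replicate numbers did not pair the samples, as same-numbered libraries of the lines had correlations of -0.00963, -0.0769 and 0.0691 between their deviations, and the fit with the replicate block called 231 miRNAs, 180 seeds and 17 hairpins against 233, 180 and 16. With only inserts that had no difference from the hairpin, miRNAs took 4.15 percentage points more of the reads in TUBO than in MM3MG, and the joint share of miR-30a-5p and miR-9-5p differed by 19.8 points against 18.7. Of 109 tested miRNAs named in the text, 86 kept their direction and their side of the threshold in all alternatives that tested them, and 17 changed sign in at least one. The cause was not tested beyond the construction of the alternatives, of which inserts of a single arm drop the reads that hairpins share. With RLE scaling the sign changed for let-7a-5p -0.317, let-7f-5p -0.199, miR-101b-3p -0.395, miR-148a-3p -0.265, miR-155-5p -0.204, miR-181a-5p -0.00424, miR-19a-3p -0.201, miR-23a-3p -0.176, miR-26b-5p -0.0192, miR-31-5p -0.174, miR-423-5p -0.0516 and miR-503-5p -0.0545 (log2 difference). With upper-quartile scaling the sign changed for let-7a-5p -0.551, let-7e-5p -0.126, let-7f-5p -0.425, miR-101b-3p -0.614, miR-148a-3p -0.499, miR-155-5p -0.432, miR-181a-5p -0.242, miR-19a-3p -0.393, miR-23a-3p -0.406, miR-26b-5p -0.253, miR-27a-3p -0.136, miR-31-5p -0.410, miR-423-5p -0.285, miR-503-5p -0.283 and miR-99b-5p -0.189 (log2 difference). With read totals the sign changed for let-7a-5p -0.208, let-7f-5p -0.0829, miR-101b-3p -0.273, miR-148a-3p -0.154, miR-155-5p -0.0960, miR-19a-3p -0.0600, miR-23a-3p -0.0647 and miR-31-5p -0.0648 (log2 difference). With 6 libraries the sign changed for let-7a-5p -0.481, let-7e-5p -0.0656, let-7f-5p -0.361, miR-101b-3p -0.555, miR-148a-3p -0.433, miR-155-5p -0.356, miR-181a-5p -0.174, miR-19a-3p -0.349, miR-23a-3p -0.341, miR-26b-5p -0.180, miR-27a-3p -0.0829, miR-31-5p -0.342, miR-423-5p -0.221, miR-503-5p -0.216 and miR-99b-5p -0.133 (log2 difference). With no filter the sign changed for let-7a-5p -0.0659, miR-101b-3p -0.119 and miR-148a-3p -0.00753 (log2 difference). With inserts with no difference the sign changed for let-7a-5p -0.0528 and miR-101b-3p -0.0559 (log2 difference). With inserts of a single arm the sign changed for let-7a-5p -0.959, let-7c-5p -0.0589, let-7e-5p -0.0633, let-7f-5p -0.361, miR-101b-3p -0.554, miR-148a-3p -0.426, miR-155-5p -0.367, miR-181a-5p -0.171, miR-19a-3p -0.353, miR-23a-3p -0.206, miR-26b-5p -0.184, miR-27a-3p -1.16, miR-31-5p -0.338, miR-423-5p -0.217, miR-503-5p -0.217 and miR-99b-5p -0.124 (log2 difference). With DESeq2 the sign changed for let-7a-5p -0.317, let-7f-5p -0.199, miR-101b-3p -0.395, miR-148a-3p -0.265, miR-155-5p -0.182, miR-181a-5p -0.00432, miR-19a-3p -0.206, miR-23a-3p -0.177, miR-26b-5p -0.0183, miR-31-5p -0.175, miR-423-5p -0.0506 and miR-503-5p -0.0563 (log2 difference). Leaving out each library in turn moved the log2 difference over these ranges: let-7a-5p -0.612 to 0.236, let-7c-5p -0.0583 to 0.785, let-7d-5p -0.242 to 0.958, let-7e-5p -0.0575 to 0.527, let-7f-5p -0.403 to 0.305, miR-101b-3p -0.571 to 0.0763, miR-148a-3p -0.496 to 0.171, miR-155-5p -0.626 to 0.551, miR-181a-5p -0.267 to 0.452, miR-19a-3p -0.376 to 0.326, miR-23a-3p -0.403 to 0.268, miR-26b-5p -0.320 to 0.616, miR-27a-3p -0.164 to 0.404, miR-31-5p -0.413 to 0.270, miR-423-5p -0.269 to 0.435, miR-503-5p -0.290 to 0.416, miR-99b-5p -0.188 to 0.406. Depth limits the low end: 3 reads over a group correspond to 2.09 CPM in TUBO and 2.59 CPM in MM3MG, below which an absence cannot be told from a low level.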

Other observations

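Some abundant miRNAs that belong to none of the lists were also far apart between the lines, and were chosen here after their values were seen. miR-22-3p had 8027, 7326 and 7859 CPM in the TUBO libraries and 23548, 24299.6 and 24566 CPM in the MM3MG libraries, a log2 difference of -1.36 ± 0.10, adjusted p = 1.32e-11 (edgeR's quasi-likelihood test, lower in 3 of 3 libraries). miR-191-5p had 3297, 3483 and 3489.5 CPM in TUBO and 965, 1043 and 1176 CPM in MM3MG (log2 difference 1.97 ± 0.13, adjusted p = 8.97e-13). Its neighbour miR-425-5p, in the same cluster of chromosome 9 (chr9:108568319-108568861, plus strand), had 292, 283 and 293 and 66.5, 43.8 and 44.8 CPM (log2 difference 2.79 ± 0.21, adjusted p = 1.28e-11). miR-152-3p, which shares its seed with miR-148a-3p, had 570.2, 603 and 628 CPM in TUBO and 1962, 2532 and 2395 CPM in MM3MG (log2 difference -1.66 ± 0.14, adjusted p = 1.47e-10), whereas miR-148a-3p was not called. miR-92b-3p, which shares the seed AUUGCAC with miR-92a-3p but comes from another hairpin, had 1136, 1063 and 1099.8 CPM in TUBO and 39.9, 147 and 182 CPM in MM3MG (log2 difference 3.39 ± 0.35, adjusted p = 1.46e-05). The lines did not overlap for any of these 5 (81.8% over all miRNAs tested), and all 5 were settled (66.8%). Both follow largely from the choice of miRNAs that were far apart.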
